A study of Mus musculus with 2 samples.

Results

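Reads were counted here for 54 microRNA (miRNA) genes that mark lineages other than skeletal muscle, out of 2202 annotated mouse miRNA genes. They were chosen by name as 6 lists: 6 genes for blood, 2 for endothelium, 16 for neurons, 11 for epithelium, 5 for liver and pancreas and 14 for embryonic stem cells. The cells were C2C12 myotubes. C2C12 is a murine line of muscle precursors, obtained from ATCC, whose origin is C3H thigh muscle that had been crushed. The cells had been differentiated for 72 h, and total RNA was taken for miRNA sequencing. The series held 1 group of 2 libraries, biological replicates 1 and 2 from separate biosamples of this 1 line, each with 1 technical replicate. The labels list no treatment and no undifferentiated control, so the genes were compared with one another and between the libraries.

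A miRNA gene is transcribed as a longer RNA that folds into a hairpin, from which short mature strands are cut and loaded into Argonaute proteins. The seed, bases 2 to 8 of the mature strand, pairs with target messages, and miRNAs with the same seed share many predicted targets. Several miRNAs are abundant in 1 lineage and scarce elsewhere: miR-124 and miR-9 in neurons, miR-122 in hepatocytes, the miR-200 family in epithelia, miR-142 and miR-223 in blood cells, miR-126 in endothelium, and the miR-290 and miR-302 clusters in pluripotent cells.

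The mature strands of members that carried most of the reads, and of relatives that share a seed or a strand with them, are shown first, because copies that share a mature strand limit what a read count per gene can tell. Sequences are from RefSeq (GRCm38.p6), written 5′ to 3′ with the seed in capitals. The counts are per hairpin gene and do not tell the strands of a hairpin apart.
miR-142a-3p: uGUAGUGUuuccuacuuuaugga
miR-126a-3p: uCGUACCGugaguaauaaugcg
miR-132-3p: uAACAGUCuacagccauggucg
miR-212-3p: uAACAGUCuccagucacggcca
miR-192-5p: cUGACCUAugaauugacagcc
miR-215-5p: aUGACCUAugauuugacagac
miR-153-3p: uUGCAUAGucacaaaagugauc
miR-138-5p: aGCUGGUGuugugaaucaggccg
miR-138-1-3p: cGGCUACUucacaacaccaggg
miR-138-2-3p: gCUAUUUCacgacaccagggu
miR-194-5p: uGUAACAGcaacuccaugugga
miR-219a-5p: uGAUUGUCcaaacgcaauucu
miR-451a: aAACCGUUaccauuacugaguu
miR-205-5p: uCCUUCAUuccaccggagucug

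The next strands belong to members with few or no reads and are shown for their seeds. The miR-9 strand is identical in Mir9-1, Mir9-2 and Mir9-3, and AAGUGCU is the seed shared by the miR-290 and miR-302 clusters.
miR-9-5p: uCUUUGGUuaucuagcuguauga
miR-200c-3p: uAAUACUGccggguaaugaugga
miR-200b-3p: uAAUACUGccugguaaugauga
miR-429-3p: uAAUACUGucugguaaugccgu
miR-200a-3p: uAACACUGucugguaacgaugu
miR-291a-3p: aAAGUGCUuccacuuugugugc
miR-294-3p: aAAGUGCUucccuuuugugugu
miR-302b-3p: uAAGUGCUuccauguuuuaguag
miR-302d-3p: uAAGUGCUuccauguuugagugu
miR-291b-3p: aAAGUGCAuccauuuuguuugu
miR-367-3p: aAUUGCACuuuagcaaugguga

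Of 15349205 reads in replicate 1 and 18450359 in replicate 2, 7581366 (49.4%) and 9865298 (53.5%) were counted on the own strand of a miRNA gene. Levels are given as counts per 1000000 of these reads (CPM), so that 3 reads, the limit that a count of 0 allows, were 0.396 CPM in replicate 1 and 0.304 CPM in replicate 2. Reads that mapped to several places (22.0% and 17.9% of all reads) are in no gene count. Of 9 myotube markers, 6 reached 2 CPM in both libraries, and the list took 35.5% and 42.8% of miRNA reads. Most of these reads were of Mir206, at 378817 ± 53707 CPM (SD, n = 2). Means of the others that reached it were 12089 CPM for Mir133b, 471 for Mir499, 378 for Mir208b, 30.9 for Mir486 and 2.94 for Mir1a-1. Mir1a-2, Mir133a-1 and Mir133a-2 missed it in at least 1 library, with means of 3.02, 2.01 and 1.03 CPM. The labels name no molecular identifiers, so intervals, floors and p-values cover the counting error of reads and compare these libraries, not conditions.

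Most of the 54 marker genes were near or at 0, and 13 were detected, which is used here for genes at 2 CPM or more in both libraries. The detected genes were Mir142, Mir451a and Mir146a of blood, Mir126a of endothelium, Mir132, Mir212, Mir153, Mir138-1, Mir138-2 and Mir219a-1 of the neuronal list, and Mir192, Mir194-2 and Mir205 of the epithelial list. A further 21 genes had reads but missed that level in at least 1 library and are called trace, and 20 had no read in either library and are called silent. The detected share was 24.1% of members against 12.4% of all annotated miRNA genes, and the silent share was 37.0% against 67.8%. The median member had a mean of 0.208 CPM, and the median annotated gene was at 0. In bulk RNA, a low level of a miRNA in all cells and a higher level in few cells cannot be told apart.

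**Figure D1:**
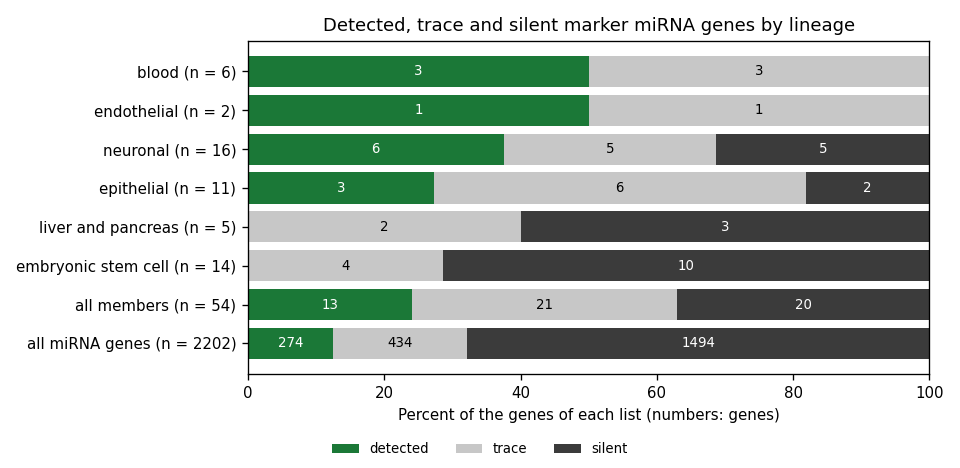
Percent of the genes of each lineage list that were detected, trace or silent, with the number of genes printed in each bar. No liver and pancreas or embryonic stem cell gene was detected, and no blood or endothelial gene was silent. Over all annotated miRNA genes, 12.4% were detected and 67.8% silent.

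The 54 genes together took 5886 reads in replicate 1 and 6197 in replicate 2. These were 0.0776% and 0.0628% of the reads on miRNA genes, with Clopper-Pearson intervals (exact, 95%) of 0.0757% to 0.0796% and of 0.0613% to 0.0644%, or 0.0702% ± 0.0105 (SD, n = 2). The neuronal list held the most, 0.0295% ± 0.00364 (SD, n = 2), with 2428 and 2652 reads. The blood list took 0.0110% and 0.0188%, the endothelial list 0.0219% and 0.00445%, and the epithelial list 0.0125% in each library. The liver and pancreas list had 9 and 16 reads over 5 genes, and the embryonic stem cell list 6 and 4 reads over 14 genes. The 13 detected genes held 97.5% and 97.7% of all these reads, and the 5 with the highest means held 78.6% and 82.4%. Set against the muscle marker, Mir206 was 1570 times the level of Mir126a in replicate 1, the smallest ratio to any detected member, and 124600 times the level of Mir205 in replicate 2, the largest.

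**Figure D2:**
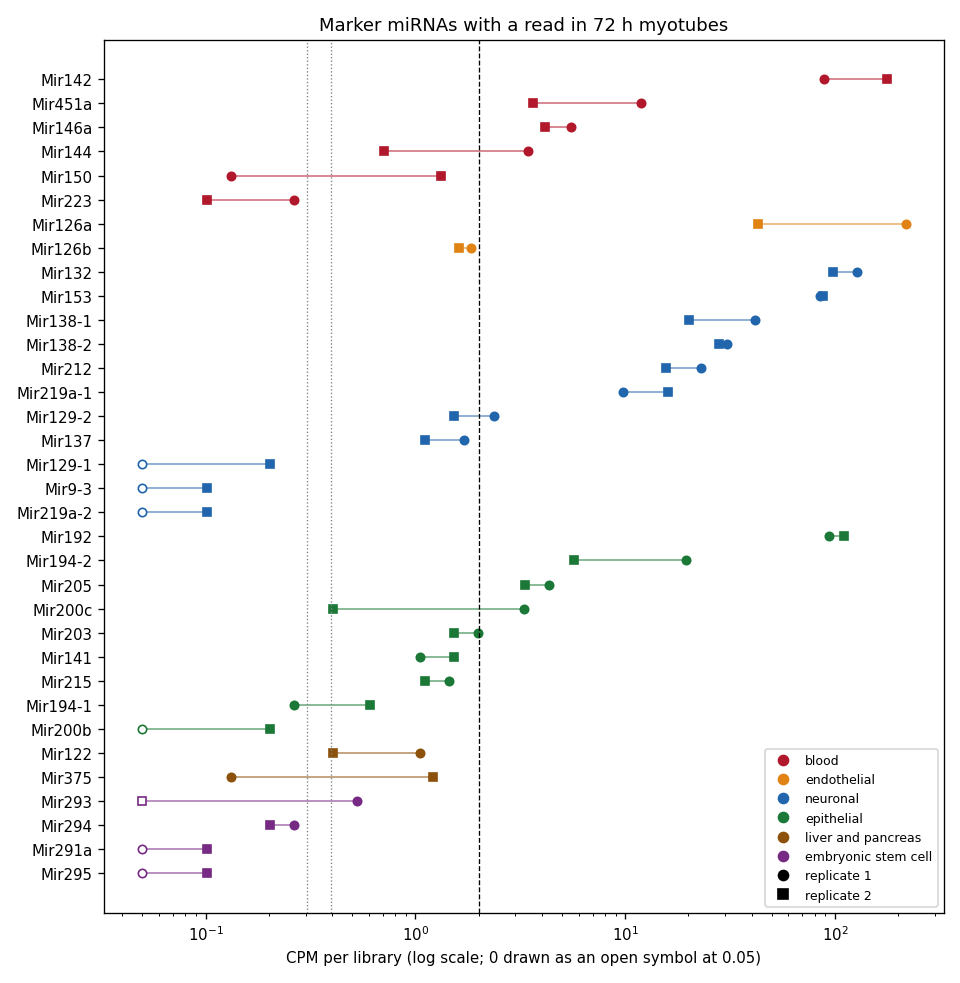
CPM of the 34 marker genes with a read, on a log scale, by lineage, with circles for replicate 1 and squares for replicate 2. The dashed line is 2 CPM and the dotted lines are 3 reads in each library. The 5 highest genes had means from 86.0 to 133 CPM.

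Among the blood genes, Mir142 was the highest, and the lymphoid and myeloid markers Mir150 and Mir223 had at most 13 reads in a library. Mir142 (ENSMUSG00000105196.1, chr11:87756864-87756927, plus strand, in an intron of the long non-coding gene Mir142hg) is expressed across haematopoietic cells. It had 675 reads in replicate 1 and 1752 in replicate 2, or 89.0 and 178 CPM, a mean of 133 ± 62.6 CPM (SD, n = 2) and rank 125 of all miRNA genes. Replicate 2 was 2.04-fold higher (95% interval 1.86 to 2.23), with an adjusted p of 7.39e-60 in an exact two-sided binomial test on TMM effective library sizes, Benjamini-Hochberg adjusted over 415 genes, the test used for every difference between libraries below.

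Mir451a and Mir144 are neighbours, 99 bp apart on chromosome 11, and mark erythroid cells. miR-451 is unusual in that Argonaute2 and not Dicer cuts its hairpin. Mir451a (chr11:78073170-78073241, plus strand) had 90 reads (11.9 CPM) in replicate 1 and 36 (3.65 CPM) in replicate 2. Mir144 had 26 (3.43 CPM) and 7 (0.710 CPM), so that it passed 2 CPM only in replicate 1. Both were higher in replicate 1, Mir451a 3.19-fold (adjusted p = 1.94e-09) and Mir144 4.73-fold (adjusted p = 0.000154). Mir451a exceeded Mir144 in each library, by 1.77 and 2.28 in log2 (0.5 reads added to each count), a mean of 2.03 ± 0.36 (SD, n = 2).

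Mir146a, a miRNA induced by inflammatory signalling, was low and even, with 42 and 41 reads (5.54 and 4.16 CPM). Its hairpin (chr11:43374397-43374461, minus strand) shares a run of 21 bases with that of Mir146b, so its count is uncertain. Mir150, of mature lymphocytes, had 1 read in replicate 1 and 13 in replicate 2, a ratio of 10.2 with a counting interval of 1.53 to 434. Mir223, of granulocytes and monocytes, had 2 reads and 1 read. The blood list therefore did not move as 1 group: Mir142 and Mir150 were higher in replicate 2, and Mir451a and Mir144 in replicate 1.

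Mir126a, the endothelial marker, differed more between the libraries than any other detected member. It lies in Egfl7 (ENSMUSG00000065540.1, chr2:26591357-26591429, plus strand, overlapping an exon), a gene of endothelial cells. Its 1646 reads in replicate 1 and 423 in replicate 2 were 217 and 42.9 CPM, a mean of 130.0 ± 123 CPM (SD, n = 2). Replicate 1 was 4.96-fold higher (4.45 to 5.53, adjusted p = 6.68e-240). Mir126b, annotated on the opposite strand of the same place, had 14 and 16 reads and did not follow it (1.11-fold, adjusted p = 0.905). Mir126a reads were 118 times those of Mir126b in replicate 1 (69.9 to 216) and 26.4 times in replicate 2 (16.1 to 46.7).

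The neuronal list split into 6 genes at 9.76 CPM or more in each library and 10 at 2.37 CPM or less. Mir132, which neurons induce with activity through CREB, was the highest, with 960 and 970 reads, or 127 and 98.3 CPM (112 ± 20.0, SD, n = 2). Its neighbour Mir212, 203 bp away in the same intron of 1700016P03Rik (Mir212 chr11:75173388-75173478 and Mir132 chr11:75173682-75173747, plus strand), had 175 and 155 reads, or 23.1 and 15.7 CPM. Mir132 exceeded Mir212 by 2.55 ± 0.13 in log2 (SD, n = 2), the most even of the 5 neighbour ratios. Both were higher in replicate 1, Mir132 1.26-fold (adjusted p = 1.05e-06) and Mir212 1.44-fold (adjusted p = 0.00228). They share the seed AACAGUC, which no other gene in the RefSeq table carries, and together gave 150 and 114 CPM.

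Mir153, which is in an intron of Ptprn2 (chr12:117250817-117250885, plus strand), a gene of neuroendocrine secretory vesicles, was the most even of the 5 highest members. It had 640 and 865 reads, or 84.4 and 87.7 CPM (86.0 ± 2.31, SD, n = 2), with an adjusted p of 0.365. Its hairpin shares no run of 20 bases with another annotated hairpin.

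The Mir138 genes, copies on different chromosomes, had similar means but opposite orders. Mir138-1 (chr9:122682876-122682974, plus strand) had 316 and 198 reads, or 41.7 and 20.1 CPM, and Mir138-2 (chr8:94324311-94324381, plus strand) 232 and 276 reads, or 30.6 and 28.0 CPM. Mir138-1 was 2.03-fold higher in replicate 1 (adjusted p = 5.99e-15), while Mir138-2 differed 1.07-fold (adjusted p = 0.556). Mir138-1 reads were 1.36 times those of Mir138-2 in replicate 1 (1.15 to 1.62) and 0.717 times in replicate 2 (0.595 to 0.864), and the intervals do not overlap. The miR-138-5p strand is identical in both genes, whereas the 3p strands differ, as shown above. Reads of the 5p strand alone map to both places, and reads that map to several places are left out, so these counts are uncertain.

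Mir219a-1, known from oligodendrocytes, had 74 reads in replicate 1 and 158 in replicate 2, or 9.76 and 16.0 CPM (chr17:34024983-34025092, minus strand). It was 1.68-fold higher in replicate 2 (adjusted p = 0.000459). Its copy Mir219a-2 had 0 reads and 1 read, and the genes annotated across from them, Mir219c and Mir219b, had 3 and 4 and 6 and 3 reads. The miR-219a-5p strand is identical in both Mir219a genes.

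The remaining neuronal genes were trace or silent. Mir129-2 had 18 and 15 reads and Mir137 13 and 11. Mir129-1, which shares the miR-129-5p strand with Mir129-2, had 0 and 2. Mir124a-1, Mir124a-2 and Mir124a-3, copies of a defining miRNA of neurons, were all silent, as were Mir9-1 and Mir9-2, and Mir9-3 had a single read in replicate 2. The limit of a count of 0 applies to reads that map to 1 place: the Mir124a hairpins share a run of 32 bases and both miR-9 strands are identical in all 3 Mir9 genes. The place of these mature strands among the multimapping reads was not tested.

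The epithelial list was carried by Mir192, with the epithelial identity genes of the miR-200 family far below it. Mir192 (chr19:6264844-6264932, plus strand), abundant in gut, liver and kidney, had 706 and 1094 reads, or 93.1 and 111 CPM (102 ± 12.6, SD, n = 2), and was 1.22-fold higher in replicate 2 (adjusted p = 0.000118). Its neighbour Mir194-2, 115 bp away, went the other way, with 147 and 56 reads, or 19.4 and 5.68 CPM, and was 3.34-fold higher in replicate 1 (adjusted p = 1.15e-15). Their ratio was 2.26 and 4.28 in log2 (3.27 ± 1.43, SD, n = 2). The second locus of this family, Mir215 and Mir194-1 on chromosome 1, had 11 and 11 and 2 and 6 reads.

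The Mir192 locus as a whole stood at 113 and 117 CPM, closer than either of its members. It had 853 and 1150 reads and the Mir215 locus 13 and 17, a ratio of 65.6 in replicate 1 (38.2 to 124) and 67.6 in replicate 2 (42.1 to 117). Mir192 and Mir215 share the seed UGACCUA but differ in their mature strands, so they can be told apart. The miR-194-5p strand is identical in both Mir194 genes, and their counts are uncertain.

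Mir205, of stratified epithelia, was the lowest detected member, with 33 reads in each library, or 4.35 and 3.35 CPM (chr1:193507463-193507530, minus strand). Mir203, of skin, had 15 reads in each library. Mir200c and Mir141, 336 bp apart on chromosome 6, had 25 and 4 and 8 and 15 reads. Mir200c was 7.96-fold higher in replicate 1 (2.75 to 31.5, adjusted p = 1.13e-05), and Mir141 did not pass the test (1.47-fold higher in replicate 2, adjusted p = 0.518), so that their order changed between the libraries. In the other miR-200 locus, on chromosome 4, Mir200a and Mir429 were silent and Mir200b had 0 and 2 reads. The chromosome 6 locus had 33 reads against 0 in replicate 1, a ratio with an exact lower limit of 8.46, and 19 against 2 in replicate 2, a ratio of 9.5 (2.29 to 84.1). The AAUACUG seed of Mir200b, Mir200c and Mir429 summed to 3.30 and 0.608 CPM.

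**Figure D3:**
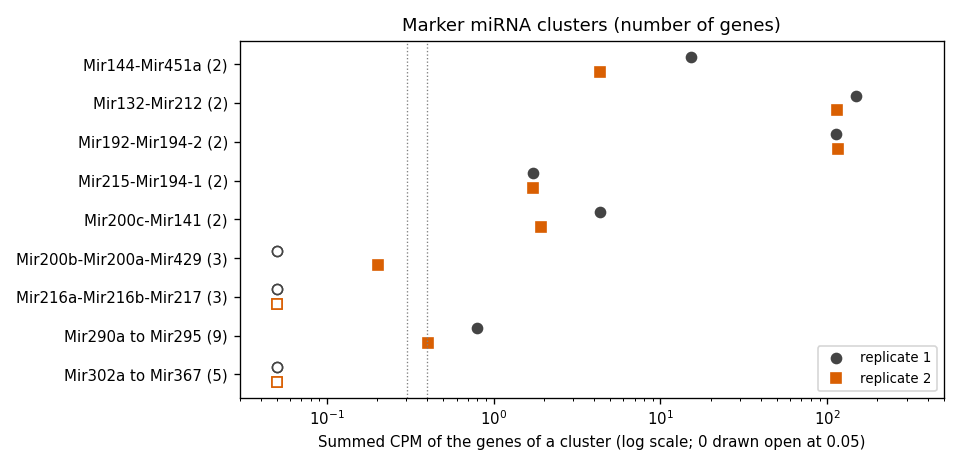
Summed CPM of the genes in each of 9 clusters of marker miRNAs, on a log scale, with circles for replicate 1, squares for replicate 2 and dotted lines at 3 reads. The Mir132 and Mir192 clusters lie above 100 CPM in both libraries, and the Mir216a and Mir302a clusters had no read.

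The liver and pancreas genes were trace or silent. Of the 5 genes, 3 (60%) were silent, beside 67.8% of all annotated miRNA genes. None was detected, beside 12.4% of all annotated miRNA genes. Mir122, the main miRNA of hepatocytes, had 8 and 4 reads, and Mir375, of pancreatic islets, had 1 and 12 reads, a ratio of 9.42 with a counting interval of 1.39 to 403 (adjusted p = 0.0179). Mir216a, Mir216b and Mir217, of pancreatic acinar cells, were silent, and their hairpins share no run of 20 bases with another annotated one.

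The embryonic stem cell genes were the lowest list in reads. Of its 14 genes, 10 (71.4%) were silent, close to the 67.8% of all annotated miRNA genes. In the cluster of 9 genes from Mir290a to Mir295 on chromosome 7 (chr7:3218626-3220841), Mir293 had 4 reads and 0, Mir294 2 and 2, and Mir291a and Mir295 1 each in replicate 2. Mir290a, Mir290b, Mir292, Mir292b and Mir291b were silent. Mir290b and Mir292b are counted in this cluster but are annotated on the minus strand, across from Mir290a and Mir292 on the plus strand. Mir302a, Mir302b, Mir302c, Mir302d and Mir367 (chr3:127545228-127545807), a second cluster that marks pluripotent cells, were all silent. The hairpins of Mir302a and Mir302b share a run of 20 bases, as do those of Mir291a and Mir291b. For these genes, the counts hold only reads that map to 1 place. The highest value in either cluster was 0.528 CPM, of Mir293 in replicate 1.

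Seeds of some silent genes were also carried by strands of genes with reads, although the counts do not tell which strand the reads came from. The seed AUUGCAC of Mir367 is carried also by Mir25, Mir32, Mir363, Mir92-1, Mir92-2 and Mir92b, which are on no marker list and are named here after their values were seen. They summed to 723 and 644 CPM (683 ± 55.6, SD, n = 2), and 5 of the 6 were detected. The seed AAGUGCA of Mir291b is carried also by a strand of Mir350, whose gene had 827 and 538 CPM. By contrast, the genes for which a strand with AAGUGCU was found, Mir291a, Mir294, Mir295, Mir302b and Mir302d, summed to 0.264 and 0.405 CPM.

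Of the 21 trace genes, 14 had reads in both libraries and 8 had at most 3 reads in each. Their means ran from 0.0507 to 2.07 CPM with a median of 0.674 CPM. Mir144, Mir200c and Mir129-2 passed 2 CPM in replicate 1 only, and none did so in replicate 2 only. The hairpins of 19 members hold a stretch of at least 20 bases that recurs in a further miRNA hairpin. Among these, 5 were detected (26.3%), 6 trace and 8 silent (42.1%). Among the 35 that share none, 8 were detected (22.9%), 15 trace and 12 silent (34.3%). Over all annotated miRNA genes, the detected share was 12.4% and the silent share 67.8%. The muscle genes Mir1a-1 and Mir1a-2, which are copies of each other, were listed at 2.94 ± 0.138 and 3.02 ± 1.69 CPM (SD, n = 2) under the same counting.

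The order of the highest members was only partly resolved. Mir142, Mir126a, Mir132 and Mir192 changed order between the libraries. Mir192 was above Mir153, Mir153 above Mir138-1, and Mir138-2 above Mir212, with no overlap between the libraries. Mir138-1 and Mir138-2 changed order between the libraries, as did Mir451a and Mir146a, and Mir219a-1 did so with both Mir212 and Mir194-2. Mir212 was above Mir194-2, Mir194-2 above Mir451a and Mir146a above Mir205 in each library, but their values overlapped.

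Between the libraries, 13 of the 24 members with 10 or more reads in total differed at an adjusted p below 0.05 (exact binomial test, Benjamini-Hochberg over 415 genes), close to the 55.7% of all tested genes that did. Of these, 8 were higher in replicate 1 (30.4% of all tested genes) and 5 in replicate 2 (25.3%). The median log2 ratio of replicate 2 to replicate 1 was -0.35 for the tested members and -0.016 for all tested genes. Differences of 2-fold or more were seen in 5 of 13 detected members (Mir142, Mir126a, Mir138-1, Mir194-2 and Mir451a), beside 21.9% of 274 detected genes. Mir142 and Mir138-1 were close to 2-fold, and 4 members reached it with library totals (without Mir142) or with DESeq2 size factors (without Mir138-1). The biological coefficient of variation over those 274 genes was 0.435, so differences of this size between single libraries were common. Since multimapping reads were 0.446 per miRNA read in replicate 1 and 0.334 in replicate 2, their part in the differences of members with identical copies was not tested.

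**Figure D4:**
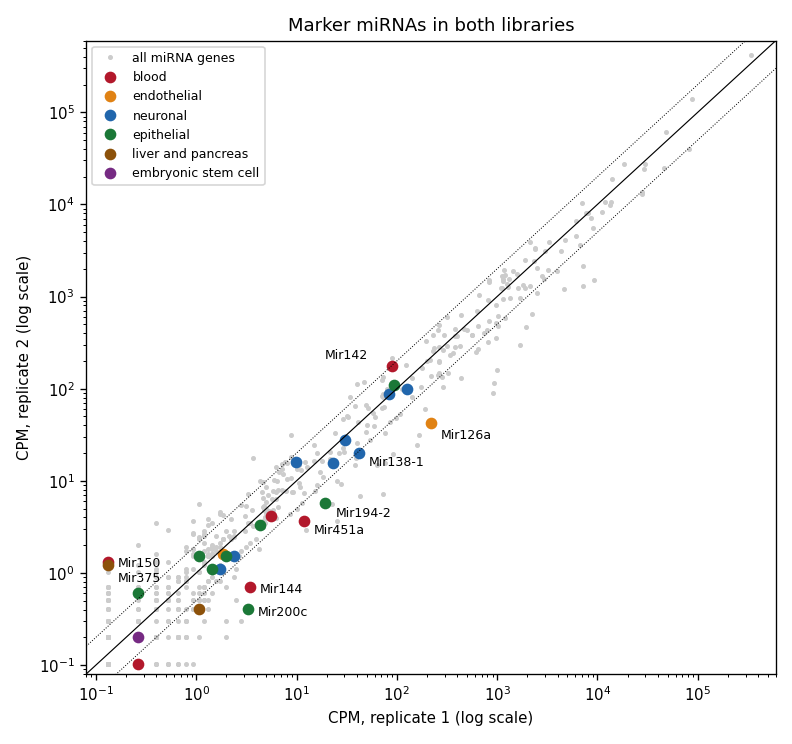
CPM in replicate 2 against replicate 1, both on log scales, for genes with a read in both libraries, with marker genes coloured by lineage and all miRNA genes in grey. The solid line is equality and the dotted lines are 2-fold; Mir126a, Mir138-1, Mir194-2, Mir451a, Mir144, Mir200c, Mir122 and Mir223 lie below them and Mir150, Mir375 and Mir194-1 above.

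Strand mattered for several members. Mir142, Mir451a, Mir126a, Mir126b, Mir129-2 and Mir219a-1 are each overlapped by a miRNA gene annotated on the other strand. All 6 were listed at 0 in the deposited count that ignores strand, while their own strand held up to 1752 reads. The partners Mir142b, Mir451b and Mir129b had no read on their own strand. Neither had Gm25641 and Mir216c, which overlap the silent genes Mir9-1 and Mir216b. The context list, 26 other miRNAs linked to blood, neurons, epithelium, liver or pancreas, had 15 detected, 8 trace and 3 silent genes. Its detected share was 57.7% against 12.4% of all annotated miRNA genes, and its silent share 11.5% against 67.8%. It took 2.30% and 0.876% of miRNA reads, more than the 0.0776% and 0.0628% of the 54 members. Its reads were uneven, with a median of gene means of 10.6 CPM and a highest mean of 5419 CPM. Since the list was chosen with earlier results of these data known, its shares are descriptive only.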

How the data were processed

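Small RNA libraries of C2C12 myotubes formed 1 group of 2 replicates. The authors deposited raw read counts per miRNA gene on the mm10 assembly with annotation M21, per the labels and file headers. For the aligner, counter and trimming, no name is given in the sources used here. The own-strand count was used. Multimapping and other summary lines were left out of library sizes. CPM, shares and ratios were computed from the counts. Genes were matched to GENCODE M21 by name (53) or, for Mir146a, by RefSeq synonym (1). Mature strands were looked up by member name, leaving out entries on chromosome 18, where Mir122 lies, and were kept for 49 of 54 members. For some of these, such as Mir302a and Mir292, only the 5p strand was found, so lists of genes that share a seed can be incomplete.

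Differences between the libraries were tested with an exact binomial test on TMM library sizes (edgeR 4.0.16, R 4.3.3), Benjamini-Hochberg adjusted over genes with 10 or more reads. Intervals of ratios are 95% exact binomial. Ratios of neighbours add 0.5 reads. Computations used Python 3.11.15, numpy 2.4.6, scipy 1.17.1, pandas 2.3.3 and matplotlib 3.10.9. Alternatives were the count that ignores strand, DESeq2 1.42.0 size factors, other denominators, thresholds, filters and pseudocounts, and each library left out.

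Members and lists were chosen with earlier results of these data known, and the locus totals, ratios between copies and count of 2-fold differences, with its alternative scalings, were added after the counts were seen. Named genes were all detected members, all silent members, their opposite-strand partners and the muscle markers. Trace members outside that rule were named after their counts were seen.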

Additional observations from a re-analysis of the deposited data

Results flagged for a closer look

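Reads that mapped to several places, which enter no gene count, numbered 3378438 in replicate 1 and 3295854 in replicate 2, far above the floor of 3 reads. Opposite-strand reads, which the comparisons do not use, passed that floor at 2 of the members that no opposite-strand miRNA gene overlaps: Mir200a, silent on its own strand, had 4 such reads in replicate 2, and Mir194-1 had 4 in replicate 1.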

How the results depend on the processing

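Raising the detection minimum from 2 to 10 CPM left 8 of the 13 detected members, and each other setting tried gave between 9 and 19 (13 to 16 with 1 library left out). Silent genes numbered 20 to 28 under every setting tried, and 21 to 26 with 1 library left out. Ignoring strand changed the mean share of all members to 0.0474%, of blood to 0.000908%, of endothelium to 0, of epithelium to 0.0144% and of liver and pancreas to 0.000173% (Mir142, Mir451a, Mir126a and Mir126b are then listed at 0). With all reads as the denominator the shares were 0.0360% for all members, 0.00774% for blood, 0.00660% for endothelium, 0.0151% for neurons, 0.00643% for epithelium, 7.27e-05% for liver and pancreas and 3.04e-05% for embryonic stem cells. Without Mir206 in the denominator they were 0.113%, 0.0244%, 0.0204%, 0.0473%, 0.0202%, 0.000229% and 9.48e-05% in the same order. Leaving out 1 library gave 0.0628% to 0.0776% for all members, 0.00445% to 0.0219% for endothelium and 0.0110% to 0.0188% for blood. Mir141 over Mir200c was 0.10 in log2 on average and ranged from -1.58 without replicate 2 to 1.78 without replicate 1, so its direction rests on 1 library. The number of members that differed was 13 with DESeq2 size factors, with library totals and with no filter on low counts, and 9 with 100 or more reads required (11 tested) or with strand ignored (19 tested). No paired analysis was possible because there is only 1 group. Depth limits genes below 0.396 CPM, and members with identical copies are limited by the multimapping reads left out, whatever the depth.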
